A study of Mus musculus with 13 samples.

Results

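The cytosolic ribosomal protein genes, which encode the protein part of the ribosomes that translate nuclear-encoded mRNAs, were taken by symbol: Rpl and Rps followed by a number, with Rplp0, Rplp1, Rplp2 and Rpsa, and without symbols that mark a pseudogene. The rule found 81 genes among 17562, 48 of the large subunit and 33 of the small subunit. Of these, 5 were paralogs or copies of a canonical gene (Rpl3l, Rpl7l1 and Rpl22l1 in the large subunit, Rps4l and Rps27l in the small), which left 45 large and 31 small subunit core genes. No measured value was used to choose them. Ribosomal protein genes with other symbols, such as Fau and Gnb2l1, do not match the rule and were left out. RNA had been sequenced from the cortex of 13 male mice at 18 months of age. Wild-type mice were Grn+/+ (n = 5), mouse progranulin-deficient mice were Grn+/- (n = 4), and humanized progranulin-deficient mice were Grn-/-; GRNtg (n = 4), with no mouse copy and a human GRN transgene in its place. Neither strain, litter nor the transgene's promoter is stated in the labels. The tables hold comparisons between groups and no values per mouse, so each fold change stands with the standard error (SE) of the authors' fit. Both mutant groups were compared with the same 5 wild-type mice, so their fold changes against wild type are not independent of each other.

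Most ribosomal proteins occur in equal numbers in each ribosome, and surplus copies are degraded. Their mRNAs share a pyrimidine run at the transcription start, the terminal oligopyrimidine (TOP) tract, through which the kinase complex mTORC1 adjusts their translation as a group. In neurons ribosomes also work in dendrites and axons, where mRNAs of ribosomal proteins are among the abundant local transcripts. Progranulin, the product of Grn, is a secreted and lysosomal glycoprotein, and mTORC1 is activated on the lysosome surface.

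Mouse Grn had log2 fold changes of -0.65 ± 0.077 (SE) in Grn+/- and -2.02 ± 0.081 in Grn-/-; GRNtg against wild type in the authors' deposited tables, which checks the labels. Over all genes, 6.8% passed an adjusted p of 0.05 in Grn+/- against wild type, 4.87% in Grn-/-; GRNtg against wild type and 0.467% between the mutant groups. Nuclear-retained noncoding RNAs were negative in 8 of 8 members in both comparisons with wild type, with 4 passing in Grn+/- and 1 in Grn-/-; GRNtg. Cell type markers moved too. Astrocyte markers were negative in 7 of 8 members in both comparisons with wild type, and 3 and 1 passed as lower in Grn+/- and Grn-/-; GRNtg. Endothelial markers were negative in 6 of 7 members in both, with 0 and 3 passing as lower. Leptomeningeal markers were positive in 7 of 7 and 8 of 8, with 0 and 1 passing as higher. Of 9 excitatory neuron markers 1 passed as higher in Grn+/- and 1 as lower in Grn-/-; GRNtg. Oligodendrocyte and microglia markers were negative in 8 of 8 members in both. Striatum markers were positive in 2 of 8 members in Grn+/- and 8 of 8 in Grn-/-; GRNtg against wild type. Between the mutant groups they were positive in 8 of 8. Inhibitory neuron markers were positive in 7 of 7 and 5 of 7 against wild type, and choroid plexus markers in 0 of 3 in both. Of these lists and the blood markers 0 passed. At an unadjusted p under 0.05 stood 0 to 2 of each list, against 20.2% and 20.5% of all genes. Liver-abundant genes, at mean normalized counts of 10.9 to 26.8 for the named Ahsg, Adh1, Apoa1 and Apoa2, passed in 5 of 6 measured members in Grn-/-; GRNtg against wild type. Between the mutant groups 5 of 7 liver-abundant genes passed as higher. Their part in the values below was not tested. In bulk cortex, fewer cells of a type and less RNA per cell cannot be told apart.

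As levels, the 76 core genes had a median of 2621 mean normalized counts per kb of transcript, with a range of 61.5 to 16097, and 69 of 76 had a mean normalized count of at least 1000. Together the 81 genes took 1.09% of all gene counts. The highest levels per kb were those of Rplp1, an acidic protein of the stalk that recruits elongation factors, at 16097, and of Rps15, which sits near the decoding site, at 12434. Rps20 and Rps15a came out at 470.4 and 362 per kb, but their representative transcripts are annotated at 3706 and 5130 bases around coding parts of 357 and 390 bases, so their length scaling is doubtful. At the other end, 3 core genes had a mean normalized count under 100: Rpl30, a large subunit protein, at 61.5 counts per kb, Rps27, a zinc-finger protein of the small subunit, at 81.3, and Rpl34, of the large subunit, at 126.

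Ribosomal protein genes have many near-identical copies in the mouse genome, and the treatment of reads that match several genes is not stated in the labels. Each transcript was therefore read in windows of 75 bases, and the share of windows found in no other annotated gene was counted. The median share over the core genes was 50.6%, and 38 of 76 were under 50%. For Rps27 (chr3:90212522-90213651, minus strand, GRCm38) 1.48% of the windows were its own, and 98.5% also stand in Rps27rt, an annotated protein-coding copy. Its first 60 coding bases are shown beside those of Rps27rt, and for Rpl34 (chr3:130726831-130730398, minus strand) beside those of the pseudogene Rpl34-ps1, because no base differs in either pair and a read from these stretches has no single origin. No capitals are used here because there is no difference to mark.
Rps27: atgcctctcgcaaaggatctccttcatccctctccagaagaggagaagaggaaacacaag
Rps27rt: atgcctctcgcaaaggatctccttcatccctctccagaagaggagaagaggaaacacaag
Rpl34: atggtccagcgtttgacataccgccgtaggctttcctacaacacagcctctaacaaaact
Rpl34-ps1: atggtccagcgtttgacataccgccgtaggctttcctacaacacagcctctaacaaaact
Values of Rps27 and Rpl34 are uncertain for this reason. Rpl30, the lowest at 61.5 counts per kb, had between 20% and 80% of its windows unshared, so its values may be affected too. A low share of own sequence did not go with a low level in every gene. Rpl9, a large subunit protein, had 8.73% of windows of its own and 4771 counts per kb, and Rpl10, a large subunit protein that joins late in assembly, had 8.14% and 2349. Rps3, a small subunit protein, shared no window with another gene and stood at 2802. Over the 76 core genes Spearman's rho between the own share and the level per kb was 0.14, as a description of points that share the same libraries.

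**Figure D1:**
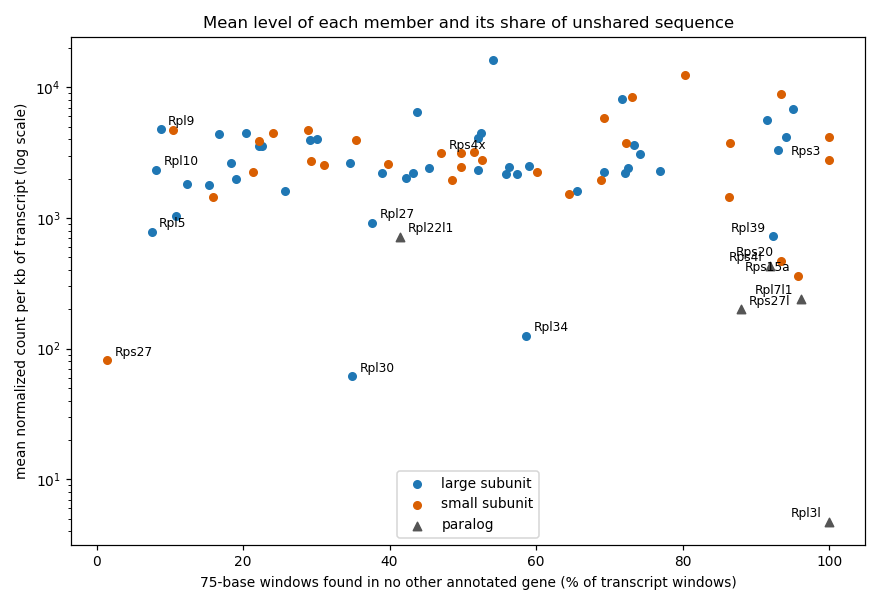
Mean normalized count per kb of transcript (vertical, log scale) against the share of 75-base windows found in no other annotated gene (horizontal, %) for each ribosomal protein gene, with dots for core genes coloured by subunit and triangles for paralogs. Rps27 (81.3), Rpl30 (61.5) and Rpl34 (126) stand below the other core genes, while Rpl9 reaches 4771 with 8.73% of its windows unshared.

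Grn+/- was set against wild type for the effect of losing 1 mouse Grn copy at this age. No ribosomal protein gene passed: 0 of 80 tested had an adjusted p under 0.05 in the authors' deposited table, where 6.8% of all genes did (2.29% higher, 4.51% lower), and 0 of 80 had an unadjusted p under 0.05, against 20.2% of all genes. Large subunit core genes had a median log2 fold change of 0.011, with 29 of 45 positive, and small subunit core genes a median of -0.016, with 7 of 31 positive, beside a median of 0.0082 and 52.4% positive over all genes. With the median of genes of similar exonic length subtracted, both medians were negative, -0.049 with 7 of 45 positive and -0.074 with 2 of 31. The 95% interval (1.96 SE on either side) lay within a 1.2-fold change in 43 of 45 large and 30 of 31 small subunit core genes, compared with 41.8% of all genes. This share depends on the SE as well as on the fold change, here and in the comparisons below. The median SE was 0.067 in large and 0.074 in small subunit core genes, and 0.094 over all genes. The SD of the log2 fold changes was 0.046 among large and 0.058 among small subunit core genes, and 0.15 over all genes.

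Single genes of the large subunit lay close to 0 in this comparison. The highest were Rpl34 (0.13 ± 0.134), Rpl15 (0.11 ± 0.062), Rpl28 (0.09 ± 0.073) and Rpl6 (0.08 ± 0.048), and the lowest Rpl13 (-0.08 ± 0.063), Rpl35a (-0.06 ± 0.085), Rpl39 (-0.06 ± 0.075) and Rpl32 (-0.06 ± 0.057) in the authors' deposited table. Each of these errors is an SE, and no value stood further than 1.96 SE from 0. In the small subunit the highest were Rps13 (0.07 ± 0.068), Rps18 (0.06 ± 0.065) and Rps6 (0.05 ± 0.062), and the lowest Rps27 (-0.26 ± 0.137), Rps12 (-0.09 ± 0.078) and Rpsa (-0.07 ± 0.076) in the authors' deposited table. Rps27, with a mean normalized count of 28.0, had the smallest adjusted p of all members, 0.256 in the authors' deposited table. The next were Rpl15 (adjusted p = 0.317), Rpl6 (0.352), Rpl13 (0.499) and Rpl28 (0.516) in the authors' deposited table.

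Grn-/-; GRNtg was set against wild type for the effect of having human in place of mouse progranulin. Here 1 of 80 ribosomal protein genes passed in the authors' deposited table, Rps4l, which was higher, where 4.87% of all genes passed, 1.81% as higher and 3.05% as lower. At an unadjusted p under 0.05 there were 4 of 80 (5.00%), against 20.5% of all genes: Rps4l, Rpl15, Rpl27 and Rps13, each with a positive fold change. Large subunit core genes had a median log2 fold change of 0.031, with 32 of 45 positive, and small subunit core genes a median of -0.0027, with 15 of 31 positive, beside 0.0050 and 51.3% over all genes. With the median of genes of similar exonic length subtracted the large subunit median was -0.012, with 19 of 45 positive. The 95% interval lay within a 1.2-fold change in 39 of 45 large and 26 of 31 small subunit core genes and in 39.2% of all genes.

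Rps4l (chr6:148354656-148355598, plus strand, GRCm38) resembles Rps4x, the X-linked gene of a small subunit protein, and is annotated in GENCODE M21 as a transcribed processed pseudogene, an intronless copy made from an mRNA. It rose in Grn-/-; GRNtg against wild type by 0.53 ± 0.135 (SE) on the log2 scale, with adjusted p = 0.00737, to 144% of the wild-type level (95% interval 119.8 to 173%) in the authors' deposited table. In Grn+/- against wild type it had 0.16 ± 0.135 (adjusted p = 0.558), and between the mutant groups 0.37 ± 0.137 (unadjusted p = 0.0069, adjusted p = 0.277), in the authors' deposited tables, so a difference between the mutant groups did not pass. Its mean normalized count was 340.5. The SEs of Rps4l stood close to 0.138, which no deposited SE exceeded, so its fold changes and intervals may be drawn towards 0. Rps4x itself had 0.01 ± 0.069 in Grn+/-, -0.06 ± 0.069 in Grn-/-; GRNtg against wild type and -0.07 ± 0.072 between the mutant groups in the authors' deposited tables, with a mean normalized count of 3057.

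The copy can be told from its parent by sequence. Over the 789 coding bases of Rps4x, 635 were identical in Rps4l, and 91.9% of the 75-base windows of Rps4l stood in no other annotated gene, the rest in Rps4l-ps, a processed pseudogene. The first 120 coding bases are shown for both, with the 26 positions that differ in capitals, because they show how soon the pair diverges after an identical start.
Rps4x: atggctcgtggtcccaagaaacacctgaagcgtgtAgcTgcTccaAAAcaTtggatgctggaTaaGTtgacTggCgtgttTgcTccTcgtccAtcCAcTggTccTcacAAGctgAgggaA
Rps4l: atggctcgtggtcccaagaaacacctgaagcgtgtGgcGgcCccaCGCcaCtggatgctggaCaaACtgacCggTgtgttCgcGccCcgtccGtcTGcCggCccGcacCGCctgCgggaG
Rps4l lies within an intron of Tmtc1 (chr6:148232430-148444389), a gene on the opposite strand, and overlaps 0 of its exonic bases. No label states whether counting used strand, so intronic reads of Tmtc1 cannot be told apart from Rps4l if strand was not used. Tmtc1, which encodes a membrane protein of the endoplasmic reticulum, had 0.05 ± 0.105 in Grn+/- against wild type in the authors' deposited table. In Grn-/-; GRNtg against wild type it had -0.14 ± 0.105 (adjusted p = 0.444) in the authors' deposited table. What part intronic reads of Tmtc1 have in the value of Rps4l was not tested. Liver-abundant genes passed in Grn-/-; GRNtg against wild type (5 of 6 measured members) and between the mutant groups (5 of 7). Their part in the values of Rps4l was not tested. When the statistics of all genes were divided by their robust spread of 1.56, the adjusted p of Rps4l was 0.905, and 0 ribosomal protein genes passed. At that setting 2 of all genes passed as higher and 3 as lower, beside 271 and 457 as deposited. With so few calls left, the 0 says little about the members.

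Among core genes of the large subunit, the highest in Grn-/-; GRNtg against wild type were Rpl27 (0.17 ± 0.077), Rpl15 (0.16 ± 0.062), Rpl37 (0.12 ± 0.086) and Rpl31 (0.12 ± 0.067) in the authors' deposited table. The lowest were Rpl39 (-0.09 ± 0.075), Rpl13a (-0.06 ± 0.074), Rpl22 (-0.06 ± 0.061) and Rplp0 (-0.05 ± 0.057) in the authors' deposited table. Rpl15 (chr14:18267823-18271391, minus strand) had an unadjusted p of 0.0081 and an adjusted p of 0.0929 in the authors' deposited table, and with 25.7% of its windows unshared its reads are uncertain too. Rpl27 (chr11:101442298-101445529, plus strand) had an adjusted p of 0.173 in the authors' deposited table and lies 985 kb from Grn, the nearest member to it on chromosome 11. The other 5 members on that chromosome, Rpl19, Rpl23, Rpl38, Rpl23a and Rps27a, lie 4400 kb or further from Grn and had adjusted p-values of 0.38 and above in this comparison in the authors' deposited table.

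In the small subunit the highest were Rps29 (0.17 ± 0.099), Rps13 (0.14 ± 0.067) and Rps26 (0.12 ± 0.078), and the lowest Rps27 (-0.11 ± 0.137), Rpsa (-0.09 ± 0.076) and Rps4x (-0.06 ± 0.069) in the authors' deposited table. Rps13 (chr7:116331505-116334195, minus strand) had an unadjusted p of 0.0316 and an adjusted p of 0.192 in the authors' deposited table. Rpsa, which also serves as a laminin receptor precursor, had an adjusted p of 0.668 in Grn+/- and 0.509 in Grn-/-; GRNtg against wild type in the authors' deposited tables.

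Between Grn-/-; GRNtg and Grn+/-, the comparison that sets the human transgene beside a single mouse copy, 0 of 81 ribosomal protein genes passed in the authors' deposited table, where 0.467% of all genes did (0.319% higher, 0.148% lower). Rps4l was the 1 member with an unadjusted p under 0.05, against 8.99% of all genes. Median log2 fold changes were 0.025 in the large subunit core, with 32 of 45 positive, and 0.031 in the small subunit core, with 20 of 31 positive, beside 0.0014 and 50.8% positive over all genes. Large subunit genes at the top were Rpl27 (0.11 ± 0.080), Rpl11 (0.10 ± 0.064), Rpl37 (0.09 ± 0.090) and Rpl13 (0.09 ± 0.066), and those at the bottom Rpl34 (-0.18 ± 0.136), Rpl30 (-0.10 ± 0.136), Rpl8 (-0.06 ± 0.061) and Rpl4 (-0.06 ± 0.057) in the authors' deposited table. Small subunit genes at the top were Rps29 (0.17 ± 0.103), Rps27 (0.15 ± 0.136) and Rps28 (0.14 ± 0.085), and those at the bottom Rps4x (-0.07 ± 0.072), Rps14 (-0.06 ± 0.091) and Rps3 (-0.05 ± 0.083) in the authors' deposited table. After Rps4l the smallest adjusted p-values were those of Rps29 (0.656), Rps28 (0.662), Rpl11 (0.723) and Rpl13 (0.756) in the authors' deposited table. The 95% interval lay within a 1.2-fold change in 41 of 45 large and 28 of 31 small subunit core genes, and in 51.4% of all genes.

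Unadjusted p-values of the members were spread over the whole range. In Grn+/- against wild type 3.75% of the members had a p under 0.1, compared with 28.0% of all genes, and in Grn-/-; GRNtg against wild type 8.75% compared with 28.8%. Between the mutant groups the shares were 3.70% and 14.9%. The SD of the authors' Wald statistic over the members was 0.68, 0.96 and 0.76 in the 3 comparisons, against 1.59, 1.57 and 1.17 over all genes. Members share regulation and libraries, so these shares and SDs are descriptions.

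**Figure D2:**
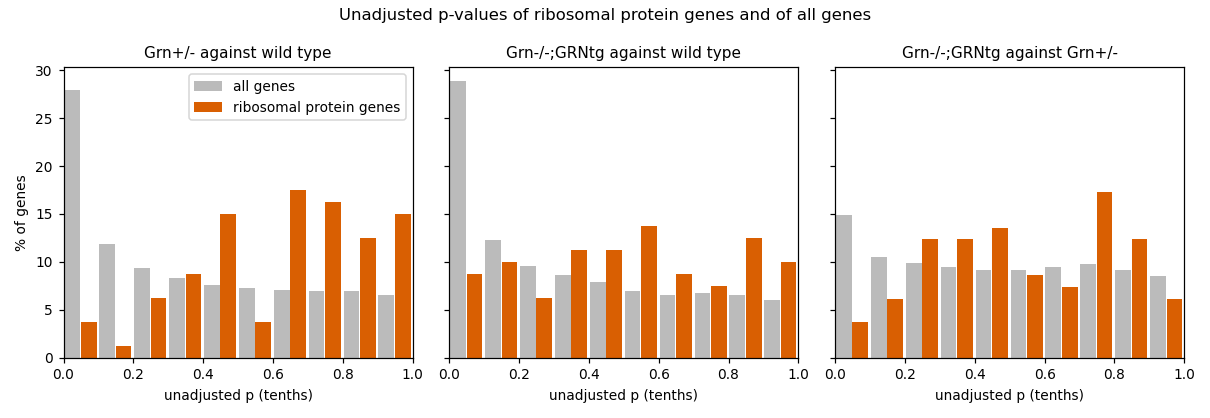
Share of genes (vertical, %) in each bin of the unadjusted p-value (horizontal, bins of 0.1) for the ribosomal protein genes (orange) and all genes (grey) in the 3 comparisons. In the lowest bin all genes reach 28.0%, 28.8% and 14.9%, and ribosomal protein genes 3.75%, 8.75% and 3.70%.

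Groups by place and role in the ribosome were drawn up after the values had been seen. No core gene passed in any comparison, so no group could hold one, and the values are descriptions. The stalk proteins Rplp0, Rplp1 and Rplp2, which recruit translation factors, had log2 fold changes between -0.05 and 0.07 in both comparisons with wild type in the authors' deposited tables. Rpl5 and Rpl11, which carry the smallest ribosomal RNA into the large subunit and, when free, bind the p53 inhibitor Mdm2, had -0.01 ± 0.058 and 0.01 ± 0.061 in Grn+/- and -0.01 ± 0.058 and 0.11 ± 0.061 in Grn-/-; GRNtg against wild type in the authors' deposited tables. Rpl3, Rpl4, Rpl8 and Rpl10, which reach towards the peptidyl transferase centre, lay between -0.04 and 0.02 in Grn+/- and between -0.05 and 0.06 in Grn-/-; GRNtg against wild type in the authors' deposited tables. Rpl17, Rpl23a, Rpl35 and Rpl39, around the exit tunnel, lay between -0.06 and 0.06 and between -0.09 and 0.12 in the authors' deposited tables. On the small subunit, Rps2, Rps3, Rps15 and Rps23, along the mRNA path and decoding centre, were positive in 0 of 4 cases in Grn+/-, with a lowest value of -0.02, and lay between -0.05 and 0.08 in Grn-/-; GRNtg against wild type in the authors' deposited tables.

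Rps6, the small subunit protein that S6 kinase phosphorylates downstream of mTORC1, had 0.05 ± 0.062 in Grn+/- and 0.04 ± 0.062 in Grn-/-; GRNtg against wild type in the authors' deposited tables. Rps27a, made as a fusion with ubiquitin, had -0.04 ± 0.081 and -0.05 ± 0.081 in the authors' deposited tables. Of the members mutated in Diamond-Blackfan anaemia, a marrow failure of ribosome assembly, 18 were listed after the values had been seen, perhaps not all. They were positive in 6 cases for Grn+/- and 12 for Grn-/-; GRNtg against wild type and in 17 between the mutant groups. All members were positive in 39 of 80, 49 of 80 and 54 of 81. Because the 18 were listed with these values in view, nothing particular to the list is read from its counts. Like all core genes, the 18 did not pass: 0 had an adjusted p under 0.05, and their smallest were 0.256, 0.0929 and 0.656 in the authors' deposited tables.

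Per kb of transcript, Rpl22l1 stood at 718 counts beside 3287 for Rpl22, Rpl7l1 at 241 beside 2519 for Rpl7, and Rps4l at 432 beside 3136 for Rps4x, while Rps27l at 200.2 was above the uncertain 81.3 of Rps27. Rpl22l1, which can replace Rpl22 in the large subunit, had 0.11 ± 0.106 in Grn+/-, 0.04 ± 0.106 in Grn-/-; GRNtg against wild type and -0.06 ± 0.110 between the mutant groups in the authors' deposited tables, and Rpl22 had -0.02 ± 0.060, -0.06 ± 0.061 and -0.04 ± 0.063. Rpl7l1, a nucleolar relative of Rpl7 with a part in ribosome assembly, had 0.07 ± 0.089, -0.0040 ± 0.089 and -0.07 ± 0.092 in the authors' deposited tables, beside 0.03 ± 0.059, 0.01 ± 0.059 and -0.02 ± 0.062 for Rpl7. Rps27l, a p53-responsive relative of Rps27, had -0.10 ± 0.122, -0.14 ± 0.122 and -0.04 ± 0.126 in the authors' deposited tables. Rpl3l, the form of Rpl3 found in heart and skeletal muscle, was tested between the mutant groups alone (0.11 ± 0.094 in the authors' deposited table, mean normalized count 6.52), and Rpl3 had 0.09 ± 0.064 there. Apart from Rps4l, none of these passed: 0 had an adjusted or unadjusted p under 0.05. Transcripts of paralog and partner were aligned over their best-matching stretch, which was not limited to coding bases and can leave some out. Identical positions there were 77.4% for Rps27 and Rps27l, 74.7% for Rpl22 and Rpl22l1, 75.3% for Rpl3 and Rpl3l, and 68.4% for Rpl7 and Rpl7l1.

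RefSeq start sites (GRCm38.p6) matched 60 of the 81 members. A run of at least 7 pyrimidines (C or T, read on the gene's strand only) within 20 bases before to 30 bases after the start stood in 40 of the 60 (66.7%), with 24 of 36 in the large and 16 of 24 in the small subunit, against 31.9% of all genes with a RefSeq start and 32.4% of mitochondrial ribosome genes. The 40 bases around the start, 20 before and 20 from the start on, are shown for 3 core genes and 2 paralogs, 1 paralog with a run and 1 without, with the longest run in capitals where it reached that length. They are Rpl15 (chr14:18270967-18271006, minus strand), Rpl28 (chr7:4792945-4792984, plus strand), Rps6 (chr4:86857348-86857387, minus strand), Rpl22l1 (chr3:28805488-28805527, plus strand) and Rpl7l1 (chr17:46782637-46782676, minus strand).
Rpl15: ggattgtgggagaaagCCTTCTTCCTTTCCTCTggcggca
Rpl28: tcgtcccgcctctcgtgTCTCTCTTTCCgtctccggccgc
Rps6: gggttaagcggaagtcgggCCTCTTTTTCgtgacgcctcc
Rpl22l1: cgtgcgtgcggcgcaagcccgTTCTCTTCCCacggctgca
Rpl7l1: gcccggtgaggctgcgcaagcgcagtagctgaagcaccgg
The longest run is 17 bases in Rpl15, 11 in Rpl28, 10 in Rps6, 10 in Rpl22l1 and 3 in Rpl7l1. Rps27l, another paralog, has a run of 9. Median log2 fold changes of the 40 members with a run and the 20 without were -0.0095 and -1.8e-05 in Grn+/- against wild type, 0.016 and 0.037 in Grn-/-; GRNtg against wild type, and 0.022 and 0.050 between the mutant groups. A run of letters near an annotated start is a description and not a measured tract.

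Genes of the machinery around the ribosome were listed with earlier results of these data known, and their counts are read against 6.8% of all genes passing in Grn+/- against wild type, 4.87% in Grn-/-; GRNtg against wild type and 0.467% between the mutant groups, and against 20.2%, 20.5% and 8.99% at an unadjusted p under 0.05. Of 36 translation initiation factors, 2 rose in Grn+/- against wild type and 0 fell: Eif3g (0.21 ± 0.063), a subunit of the scaffold eIF3, and Eif4h (0.14 ± 0.045), a helper of the mRNA helicase, in the authors' deposited table. In Grn-/-; GRNtg against wild type 2 rose and 0 fell, Eif3c (0.21 ± 0.059), of eIF3, and Eif4b (0.17 ± 0.048), a helicase cofactor and target of S6 kinase whose mRNA carries a TOP tract, in the authors' deposited table. In both comparisons 5.56% of the initiation factors passed, and 6 and 9 of 36 had an unadjusted p under 0.05, shares near those of all genes. Of 12 elongation and termination factors 0 passed in each comparison, with 2, 1 and 0 at an unadjusted p under 0.05. Of 93 ribosome biogenesis genes, Rrp1 (0.19 ± 0.050), of large subunit assembly, and Ncl (0.26 ± 0.076), the nucleolar protein nucleolin, rose in Grn+/- against wild type in the authors' deposited table. Heatr1 (-0.30 ± 0.078), of small subunit assembly, and Mdn1 (-0.32 ± 0.089), the assembly ATPase midasin, fell there in the authors' deposited table. In Grn-/-; GRNtg against wild type Rrp1 rose (0.16 ± 0.050) and Mdn1 fell (-0.27 ± 0.089) in the authors' deposited table. These are 4.30% and 2.15% of the biogenesis list, below the shares of all genes. Of these initiation and biogenesis genes 0 passed between the mutant groups, with 0 and 1 at an unadjusted p under 0.05. Of 15 RNA polymerase I genes, which transcribe ribosomal RNA, 0 passed in each comparison, with 1 at an unadjusted p under 0.05 in each.

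In the mTORC1 list of 32 genes, which holds regulators that act upstream of TOP mRNAs, Rraga (0.25 ± 0.074), a GTPase that brings mTORC1 to the lysosome, rose and Sesn3 (-0.76 ± 0.134), a sestrin that restrains mTORC1, fell in Grn+/- against wild type in the authors' deposited table. In Grn-/-; GRNtg against wild type Rheb (0.21 ± 0.052), the GTPase that activates mTORC1, and Rraga (0.24 ± 0.074) rose in the authors' deposited table. Sesn3 (-0.53 ± 0.134) and Ddit4 (-0.30 ± 0.094), the latter an inhibitor of mTORC1 also called Redd1, fell there in the authors' deposited table. The members that passed are 6.25% of the list in Grn+/-, near the 6.8% of all genes, and 12.5% in Grn-/-; GRNtg, beside 4.87%. At an unadjusted p under 0.05 stood 5 and 8 of the 32, against 20.2% and 20.5% of all genes, and nothing particular to the list is read from these counts. Of the 32 genes 0 passed between the mutant groups, with 1 at an unadjusted p under 0.05. Mtor itself had 0.04 ± 0.062 and 0.06 ± 0.062 against wild type in the authors' deposited tables. Transcript levels say nothing of kinase activity or of how well TOP mRNAs were translated.

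For comparison, genes of the mitochondrial ribosome, which translates the mitochondrial genome, had median log2 fold changes of 0.098 in Grn+/- and 0.072 in Grn-/-; GRNtg against wild type, with 71 and 64 of 77 positive and 1 passing as higher in each, which is 1.30% of the list where 2.29% and 1.81% of all genes passed as higher. Oxidative phosphorylation genes had medians of 0.089 and 0.077, with 14 of 78 (17.9%) and 3 of 79 passing as higher. Proteasome genes had medians of 0.11 and 0.096, with 6 (16.2%) and 2 (5.41%) of 37 passing as higher, and 0 genes of these 3 lists passed as lower. With the median of genes of similar exonic length subtracted, these 6 medians remained positive, between 0.042 and 0.081, while those of the cytosolic ribosomal protein core lay between -0.074 and -0.012. The difference between the lists was not tested, and nuclear-retained RNAs moved in the same comparisons with medians of -0.23 and -0.14.

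**Figure D3:**
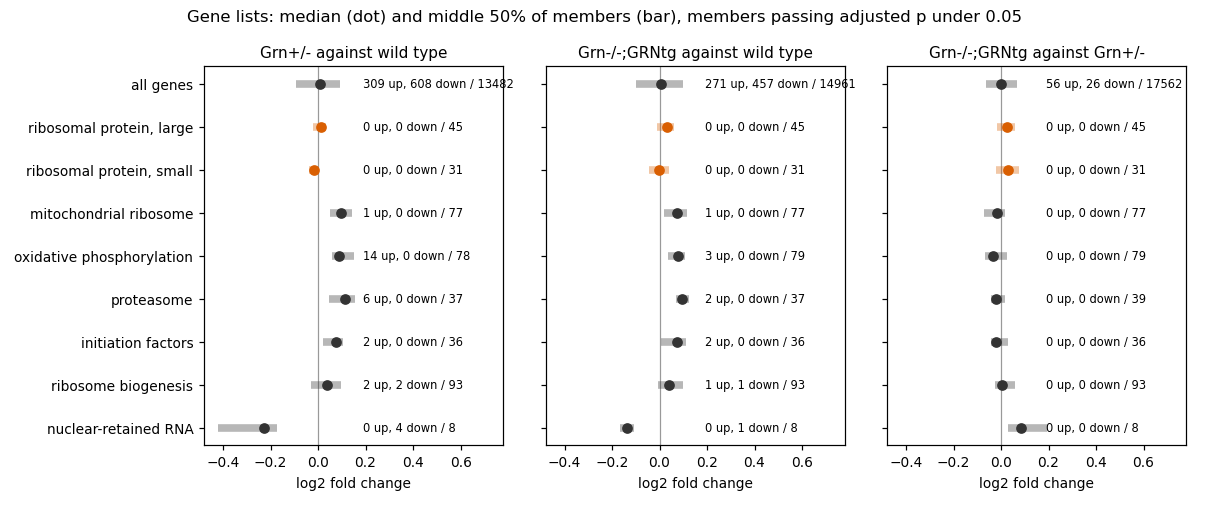
Median log2 fold change (dot) and middle 50% of the members (bar) of each gene list (vertical) in the 3 comparisons, with the number of members that passed an adjusted p of 0.05 in each direction and the number measured at the right. Cytosolic ribosomal protein core genes (orange) sit at medians of -0.016 to 0.031, and mitochondrial ribosome, oxidative phosphorylation and proteasome genes at 0.072 to 0.11 against wild type.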

How the data were processed

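Per the labels' protocols, a directional kit turned total RNA of 13 cortex samples into libraries. The submitters' processing notes name mm10, R 4.1.2 and DESeq2 1.34.0. The aligner, the counter, the annotation, the read length and the handling of reads that match several genes are stated in neither labels nor headers (not given in the sources used here). The authors' deposited tables hold a mean normalized count (a signal averaged over libraries), the log2 fold change with its SE, the Wald statistic (a score) and the p-value with its Benjamini-Hochberg adjusted p-value, per the file headers. Depth per mouse is unknown. Deposited SEs did not exceed 0.138, as would follow from a prior that draws fold changes of low genes towards 0. Rps4l, Rps27, Rpl30 and Rpl34 had SEs close to that limit, so the same may hold for their values and intervals. Log2 fold changes of the 3 tables added up exactly. No p-value here goes beyond the variation among these 13 animals, taken from the authors' model. Rows that name no gene, 17.0% (no_feature) and 0.606% (ambiguous) of mean counts, were left out. The no_feature row was lower in both comparisons with wild type in the authors' deposited tables. Its log2 fold changes were -0.22 ± 0.052 in Grn+/- (adjusted p = 0.00193) and -0.18 ± 0.052 in Grn-/-; GRNtg (adjusted p = 0.0241). Between the mutant groups it had 0.04 ± 0.054. What part this row has in the values of the members and lists was not tested.

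Of 89 symbols in GENCODE M21 that match the rule, 83 are protein coding, of which 3 were not analysed here, and 6 are pseudogenes, of which Rps4l alone was used. Of the members 1 enters the counts and medians but is not reported here by name. A gene counted as called at an adjusted p under 0.05. Intervals are 1.96 SE on either side. Levels per kb used 1 transcript of GENCODE M21, ranked by principal tag, basic tag, coding type and support level, with the shortest taken among equals. Shared sequence was counted in windows of 75 bases on either strand, also of 50 and 100 bases, since the read length is unknown (medians of unshared windows 50.6%, 43.9% and 57.1%). Genes were named by rule: called members, the 4 highest and lowest large and 3 highest and lowest small subunit genes of each comparison, the paralogs with partners, called members of the translation, biogenesis, polymerase I and mTORC1 lists, and, where none passed, the 5 smallest adjusted p-values. The members and lists were chosen with earlier results of these data known. The window check, the start-site span and run length, the groups by role, the sequences shown, the centring of the lists set beside the members and the genes named for level, shared sequence, position or role were chosen after the members' values had been seen. The calculations were tested on simulated data. Python 3.11.15, numpy 2.4.6, pandas 2.3.3, scipy 1.17.1 and Biopython 1.88 were used. Alternatives were an adjusted p of 0.1, a mean count of at least 100, genes of all 3 tables only, a rescaled statistic, and centring by all genes or by 20 bins of mean count or exonic length.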

Additional observations from a re-analysis of the deposited data

How the results depend on the processing

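Counts of called ribosomal protein genes stayed at 0 higher in Grn+/- against wild type and between the mutant groups, and at 0 lower in all 3 comparisons, under each alternative tried. The rescaled statistic could show little in Grn+/- against wild type, where 0 of all genes passed as higher and 3 as lower. In Grn-/-; GRNtg against wild type the count of 1 higher became 2 at an adjusted p under 0.1, where Rpl15 joined with 0.0929, and 0 with the statistic divided by its robust spread, where 2 of all genes passed as higher. Rps4l ranged from 0.48 to 0.54 there. Subunit medians of all members, paralogs included, depended on the centring. In Grn+/- against wild type the large subunit median of 0.012 became 0.0039 after subtracting the median of all genes, -0.0013 after that of genes of similar mean count and -0.044 after that of genes of similar exonic length, and the small subunit median of -0.016 became -0.024, -0.036 and -0.074. Without paralogs, length centring gave the large subunit -0.049, and members with a positive value went from 29 to 7 of 45. In Grn-/-; GRNtg against wild type the large subunit median of 0.031 became 0.013 with mean count and -0.012 with length. The small subunit median of -0.0027 became -0.0077, -0.021 and -0.015 under the 3 centrings, 0.014 among genes with a mean count of at least 100 and 0.013 as a weighted mean. Between the mutant groups both stayed positive, from 0.019 to 0.031. The cause of these shifts was not tested. No paired analysis was possible because the tables hold no values per mouse, and for the same reason no mouse could be left out in turn. Depth per mouse is unknown, and genes with near-identical copies limit what any count of theirs can show.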
